A study of Mus musculus with 4 samples.

Results

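A set of 9 genes that TGF-β is known to induce in mesenchymal cells, and that encode matrix proteins, contractile proteins or a tendon transcription factor, were examined for peaks of phosphorylated Smad proteins in the early mouse tooth. They are Scx, Tagln, Acta2, Ccn1, Ccn2, Col1a1, Col1a2, Fn1 and Tgfbi, taken by name and not by a measured value, and they are 9 of the 21523 protein-coding genes placed on chromosomes 1 to 19 and X. For each gene, every deposited peak that touched the gene body or the 10 kb on either side, called the locus, was taken, and peaks up to 100 kb away were read as context. The peaks came from CUT&RUN, in which an antibody directs micrococcal nuclease to chromatin in permeabilised cells and the released fragments are sequenced. The material was molar tooth germs of wild-type CD1 embryos at E13.5 (E for embryonic day), with 2 libraries made with an antibody against phosphorylated Smad3 (pSmad3) and 2 with one against phosphorylated Smad1/5 (pSmad1/5). Each antibody is represented by 1 list of peaks named as common to its libraries, so no value per library was used here, no replicate error could be given and no test was made. The labels name no altered gene and no treatment, and a control library without a Smad antibody was not analysed here. Germs were dissociated whole, so epithelium and mesenchyme cannot be told apart, and neither can binding in few cells and weak binding in many. Expression was not measured, so the tissue could not be checked by its markers. Of 6 dental mesenchyme markers 0 had a pSmad3 and 1 a pSmad1/5 peak, and of 4 dental epithelium markers 0 and 2. The counts were 2 and 2 of 4 smooth muscle and pericyte markers, 1 (Scx itself) and 0 of 3 tendon markers and 0 and 2 of 3 osteoblast markers. Over all protein-coding genes 24.4% had a pSmad3 and 27.3% a pSmad1/5 peak, so counts over so few markers say nothing of the tissue.

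TGF-β ligands bind a receptor pair with kinase activity that phosphorylates Smad2 and Smad3. The phosphorylated proteins join Smad4, enter the nucleus and act on genes together with other transcription factors. BMP receptors phosphorylate Smad1, Smad5 and Smad8 instead. In fibroblasts and smooth muscle, TGF-β is best known for raising collagen, fibronectin and the actin-based contractile apparatus, and in the embryo for inducing tendon progenitors. The dental mesenchyme of the bud stage is a condensing tissue that lays down matrix around the epithelial bud.

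pSmad3 peaks lay in the loci of 5 of the 9 genes, and pSmad1/5 peaks in none. The 5 were Scx, Tagln, Ccn1, Col1a1 and Tgfbi, while Acta2, Ccn2, Col1a2 and Fn1 had no peak of either antibody. Over all protein-coding genes, a pSmad3 peak lay in 24.4% of loci and a pSmad1/5 peak in 27.3%. A pSmad3 peak with no pSmad1/5 peak, the state of these 5 genes, was found at 10.3% of protein-coding genes. A pSmad1/5 peak with no pSmad3 peak was found at 13.2%, peaks of both at 14.1% and no peak at 62.4%. The genes are not unusually long, with a median body of 15.3 kb against 17.4 kb for all protein-coding genes. Among the 15364 protein-coding genes between the shortest and the longest of the 9, the pSmad3 and pSmad1/5 shares were 24.8% and 27.3%. The 9 genes were named with earlier results of these lists known, so these shares describe them and do not test them. A missing peak means that the list has no call there, not that signal was absent.

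**Figure D1:**
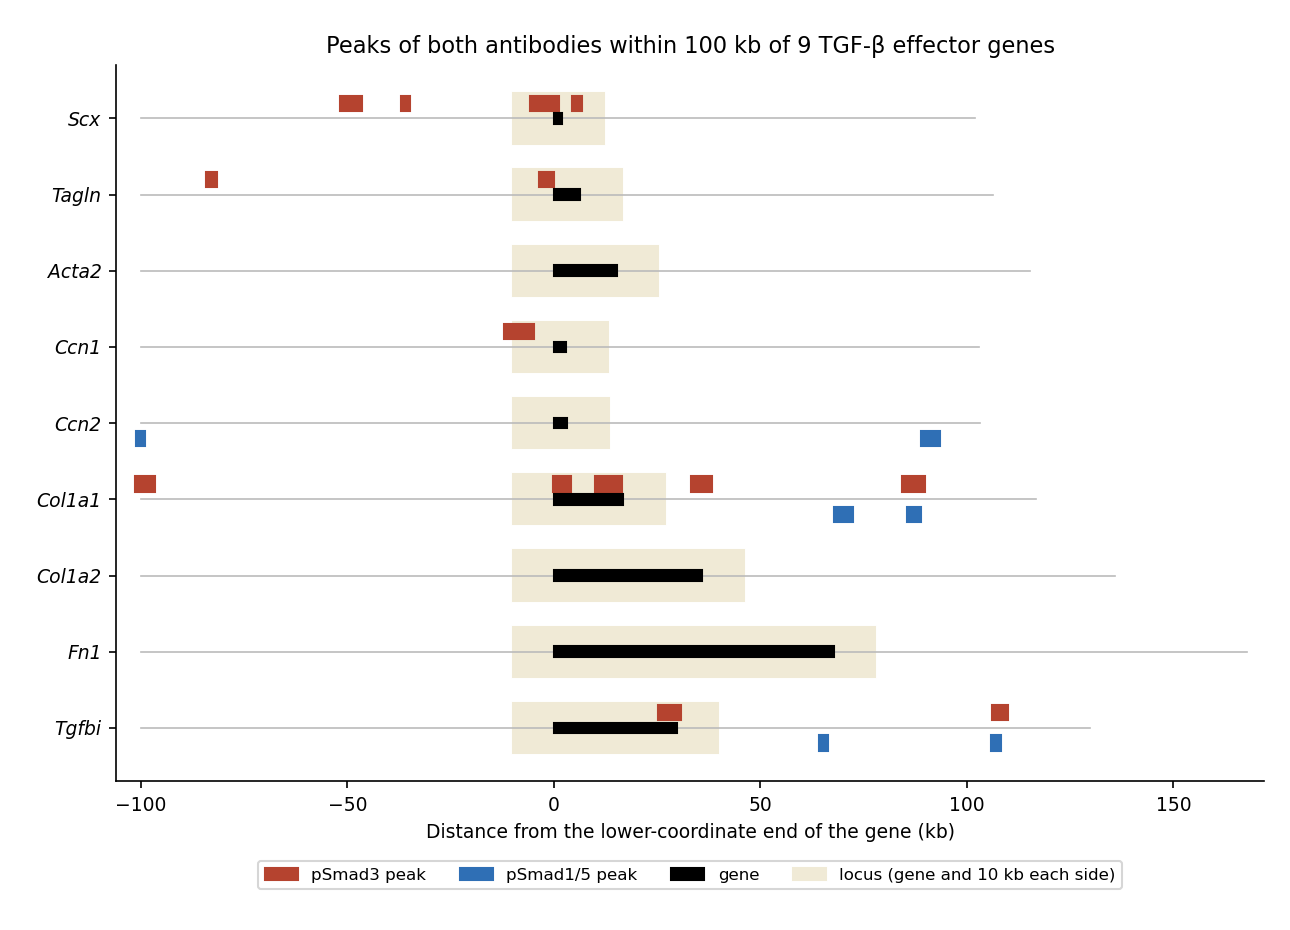
Deposited peaks within 100 kb of each of the 9 genes, drawn to scale by distance in kb from the end of the gene with the lower coordinate; pSmad3 peaks are red and above the line, pSmad1/5 peaks blue and below it, gene bodies black and loci shaded. The 7 peaks that reach into the shaded loci are all pSmad3, and the 6 pSmad1/5 peaks lie at Ccn2, Col1a1 and Tgfbi outside them.

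The 5 loci held 7 pSmad3 peaks, each from a call of its own. Their widths ran from 2317 to 7171 bp (median 5567 bp), against a list median of 4693 bp. Of the 7, 5 touched the body of the named gene itself and 4 covered an end of it. Among all 5545 pSmad3 peaks in a protein-coding locus, 86.01% touched the body of any protein-coding gene and 21.4% covered an end of any. That is a wider measure, by which the upper Scx peak, inside Bop1, would also touch a body. The signals were ordinary for the list. Total signal, the authors' sum over a call in their own scaling, ran from 21715 to 66522, against a list median of 28468 (quartiles 23818 and 39747). Maximum signal ran from 10 to 15, against a list median of 13 (quartiles 12 and 15), so none of the 7 had a maximum above the upper quartile. Of the 7, 4 had a total at or above the list median, 3 had a maximum above the median and 2 had one below it.

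**Figure D2:**
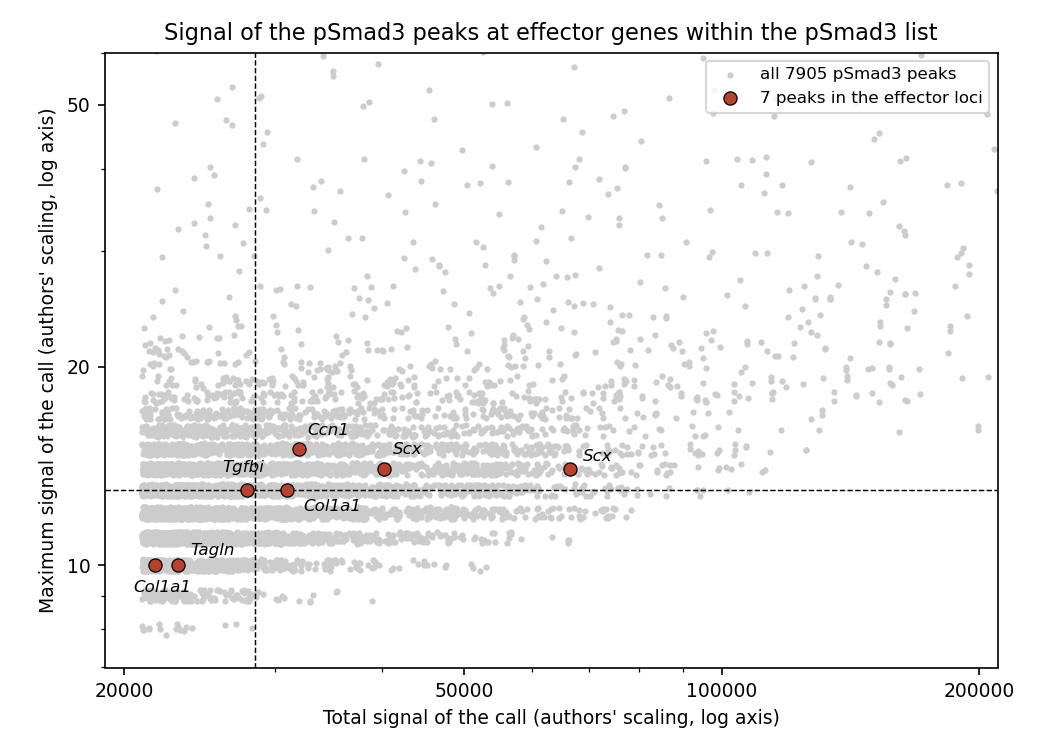
Total against maximum signal of every pSmad3 peak (grey, moved slightly up or down at random so that equal values can be seen) with the 7 peaks in the effector loci in red; both axes are logarithmic, the dashed lines are the list medians of 28468 and 13, and 351 peaks with higher signals lie beyond the axes. The 7 peaks sit within the main body of the list, from the lower peak of Col1a1 at a total of 21715 to the upper peak of Scx at 66522.

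Scx, a basic helix-loop-helix transcription factor of tendon and ligament progenitors, had 2 pSmad3 peaks and the highest totals of the group. Only 7.46% of protein-coding genes had 2 or more pSmad3 peaks in the locus. The lower peak ran over the gene's lower end (chr15:76451530-76458633, mm10) and covered 59.4% of its 2058 bp body. Its total was 40289, above 75.5% of the pSmad3 list, and its maximum of 14 lay 1268 bp outside the gene. The upper peak lay 2325 bp beyond the other end (chr15:76461793-76464109), with a total of 66522, above 90.7% of the list, and again a maximum of 14. The region of that maximum lay just past the upper edge of the peak, so the total is that of a call reaching beyond the deposited stretch. The whole of Scx lies within the span of Bop1, a ribosome biogenesis gene, and the lower peak also touched Mroh1, so neither peak can be given to Scx alone. Farther out, 2 weaker pSmad3 peaks lay inside Mroh1, 34.7 and 46.4 kb from Scx, above 11.9% and 14.2% of the list. The nearest pSmad1/5 peak was 191 kb away, in Cyhr1.

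The contractile genes differed from each other. Tagln encodes transgelin, an actin-binding protein of smooth muscle and myofibroblasts, and Acta2 encodes smooth muscle α-actin, the actin isoform that marks the same cells. Tagln had 1 pSmad3 peak (chr9:45925952-45929630) that reached its lower end with 3 bp, or 0.0815% of the peak. The rest lay inside Pcsk7, a proprotein convertase gene whose span overlaps Tagln by 2480 bp. The peak was weak, with a total of 23122, above 19.9% of the list, and a maximum of 10, above 1.99% of it. A second pSmad3 peak lay 81.5 kb away in Bace1, and the nearest pSmad1/5 peak was 173 kb away. Acta2 (chr19:34240336-34255585) had no peak of either antibody within 100 kb. Its nearest pSmad3 peak was 332 kb away, touching Ifit3 and Ifit1bl1, and its nearest pSmad1/5 peak 106 kb away in Ankrd22.

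Ccn1 and Ccn2 encode related secreted matricellular proteins, formerly Cyr61 and connective tissue growth factor, and they had different peaks. Ccn1 had a single pSmad3 peak, the widest of the 7 at 7171 bp (chr3:145634874-145642044), 4927 bp from the gene and touching no other gene. Its total was 32058, above 62.2% of the list, and its maximum of 15 was the highest of the group, at 10675 bp from the gene. The RefSeq promoter table places Ccn1 on the minus strand, so this peak lies beyond the 3′ end, and the nearest edge of the peak is 7892 bp from the promoter window. No other peak lay within 100 kb, and the nearest pSmad1/5 peak was 169 kb away in Ddah1. Ccn2 (chr10:24595442-24598683) had no pSmad3 peak within 1 Mb, the nearest being 1907 kb away in Slc2a12, farther than for 94.8% of protein-coding genes. It was the only one of the 9 with pSmad1/5 peaks and no pSmad3 peak within 100 kb. One lay in Enpp1, 85.8 kb away, with a total above 29.9% of its list and a maximum of 20 against a list median of 16. The other lay 98978 bp away in the lncRNA Gm15270, with a total above 7.56% of the list and a maximum of 14.

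The chains of type I collagen, which assemble as a heterotrimer of Col1a1 and Col1a2 products, were unlike in their peaks. Col1a1 had 2 pSmad3 peaks in its body. The lower one (chr11:94935956-94940420) covered the gene's lower end and 24.95% of the body. It had the lowest total of the 7, 21715, above 7.36% of the list, with a maximum of 10 located 1949 bp inside the gene. The upper one (chr11:94946279-94952690) lay wholly in the body, covered 38.1% of it, and had a total of 31009, above 59.3% of the list, with a maximum of 13. Neither touched another gene. Outside the locus, pSmad3 peaks lay 16.3 kb away in Sgca, 67.5 kb away in Samd14 and 96.7 kb away on the other side, above 35.3%, 25.5% and 22.9% of the list. A pair of pSmad1/5 peaks lay 51.0 kb away over Ppp1r9b and 68.7 kb away in Samd14, above 65.6% and 62.6% of their list. The Samd14 peaks of the antibodies overlapped by 3457 bp, which was 61.9% of the pSmad3 and 100% of the pSmad1/5 peak, with 5425 bp between their maxima. The pSmad1/5 maximum lay outside its deposited peak. Col1a2 (chr6:4505618-4541543) had no peak within 100 kb. Its nearest peaks of both antibodies lay 381 kb away in Ppp1r9a, with maxima of 140 for pSmad3 and 260 for pSmad1/5, more than 2 times the list medians of 13 and 16.

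Fn1, fibronectin, the longest of the genes at 67808 bp (chr1:71585473-71653280), had no peak within 100 kb. Its nearest pSmad3 peak was 603 kb away and its nearest pSmad1/5 peak 476 kb away. Tgfbi, a secreted adhesion protein first isolated as a TGF-β-induced transcript in human cells, had 1 pSmad3 peak (chr13:56634915-56640481) over its upper end, which is the 3′ end, since the promoter table places the gene on the plus strand. The peak covered 14.9% of the body, touched no other gene, and had a total of 27843, above 47.3% of the list, with a maximum of 13. The promoter window of Tgfbi was 25280 bp from this peak. The nearest pSmad1/5 peak to any of the 9 genes was at Tgfbi, 34.4 kb away in the lncRNA Gm32965, above 40.9% of its list. A pair of overlapping peaks lay 76.2 kb (pSmad3) and 76.0 kb (pSmad1/5) away, inside Smad5, which encodes one of the BMP Smads. They overlapped by 2204 bp, or 55.9% of the pSmad3 and 92.03% of the pSmad1/5 peak. The regions of their maxima were 25 bp apart, that of pSmad1/5 lying past the edge of its deposited peak. Both were low in their lists, above 3.05% of pSmad3 and 19.2% of pSmad1/5 totals.

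**Figure D3:**
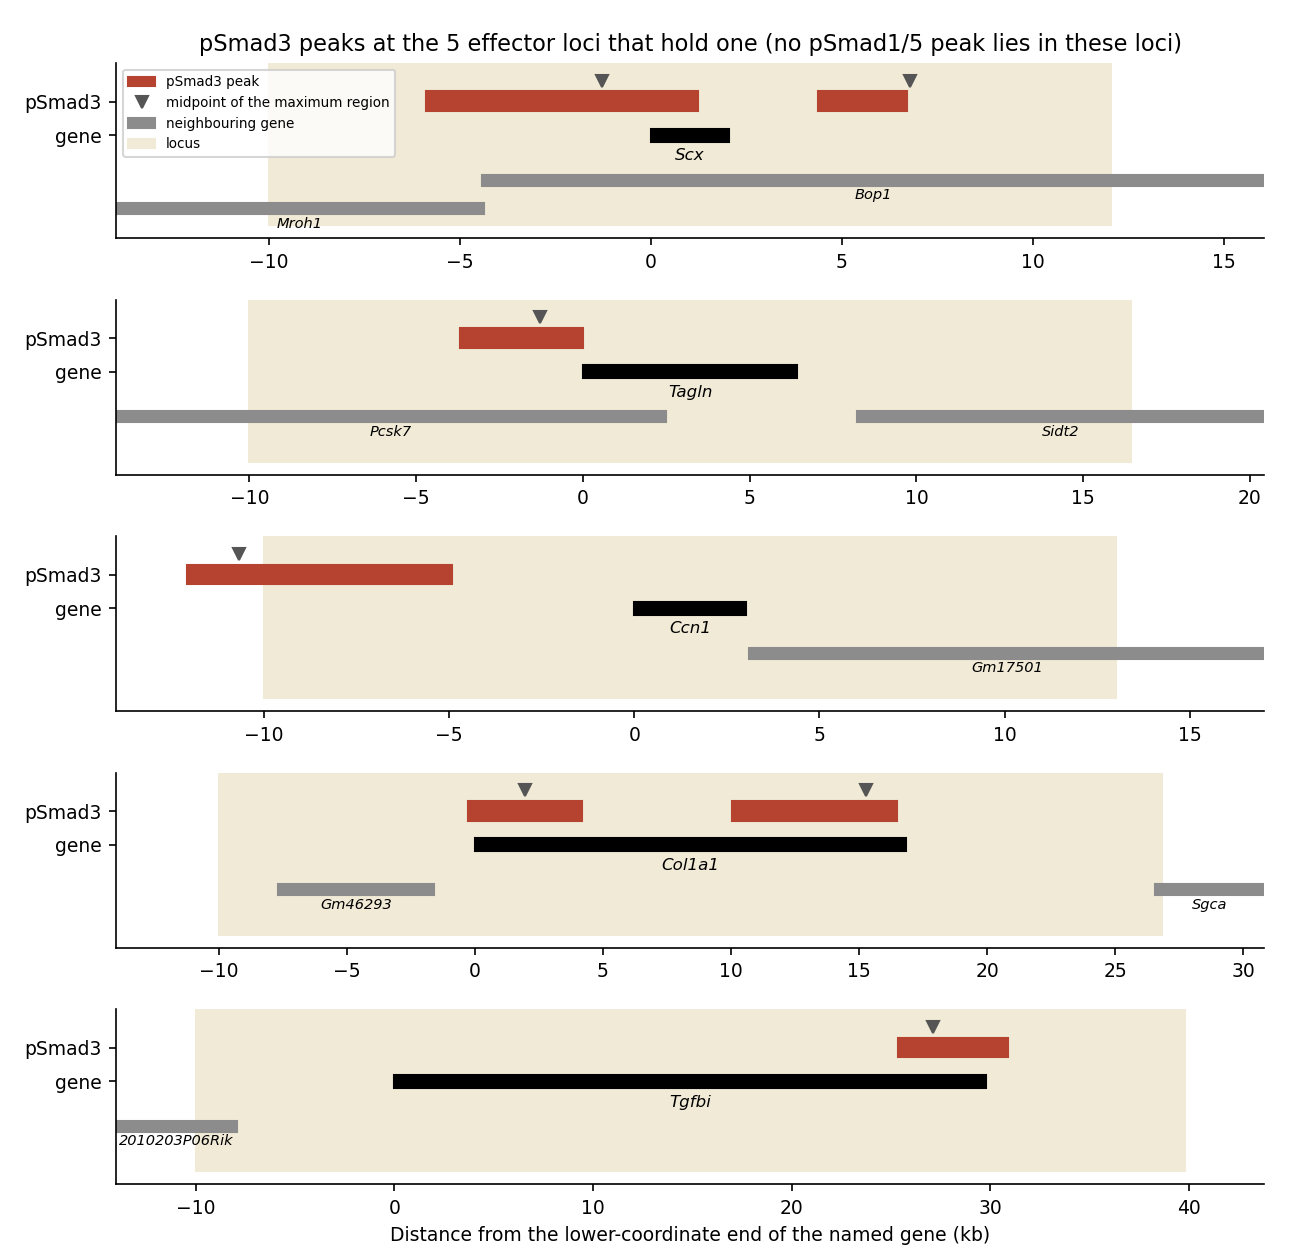
pSmad3 peaks (red) at the 5 loci that hold one, by distance in kb from the end of the named gene with the lower coordinate, with the midpoint of each maximum region (triangle), the named gene (black) and neighbouring RefSeq genes (grey; a microRNA near Tagln is not drawn). The Scx peaks lie over Bop1 and the Tagln peak over Pcsk7, whereas the peaks of Ccn1, Col1a1 and Tgfbi touch no other gene, and the maximum of the Ccn1 peak falls outside the shaded locus.

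Within 100 kb, the same 5 genes had a pSmad3 peak, and 3 genes, Ccn2, Col1a1 and Tgfbi, had a pSmad1/5 peak. Over all protein-coding genes 54.2% had a pSmad3 and 59.9% a pSmad1/5 peak within this distance, so at 100 kb the pSmad3 count is near the background. Acta2, Col1a2 and Fn1 had neither, as did 31.1% of protein-coding genes. The peak closest to the boundary on the inner side of the 10 kb flank was that of Ccn1 at 4927 bp, and the closest on the outer side was the Sgca peak of Col1a1 at 16269 bp. The median distance to the nearest peak was 4.93 kb for pSmad3 and 169 kb for pSmad1/5 over the 9 genes, against 79.2 kb and 58.1 kb over all protein-coding genes. For pSmad3 that median is the value of Ccn1, at the edge of a wide gap. The 5 genes with a locus peak lay 0 to 4.93 kb from a pSmad3 peak. The remaining 4 lay 332 to 1907 kb from one, farther than for 75.3% to 94.8% of protein-coding genes. Of the 9 genes, 5 had their nearest peak in the pSmad3 list, and these were the 5 with a peak in the locus. With no pSmad1/5 peak in any of the loci, this count follows from the locus counts and is not a separate result. The other 4 had their nearest in the pSmad1/5 list. Of all protein-coding genes, 39.6% were nearer to a pSmad3 and 51.8% nearer to a pSmad1/5 peak.

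**Figure D4:**
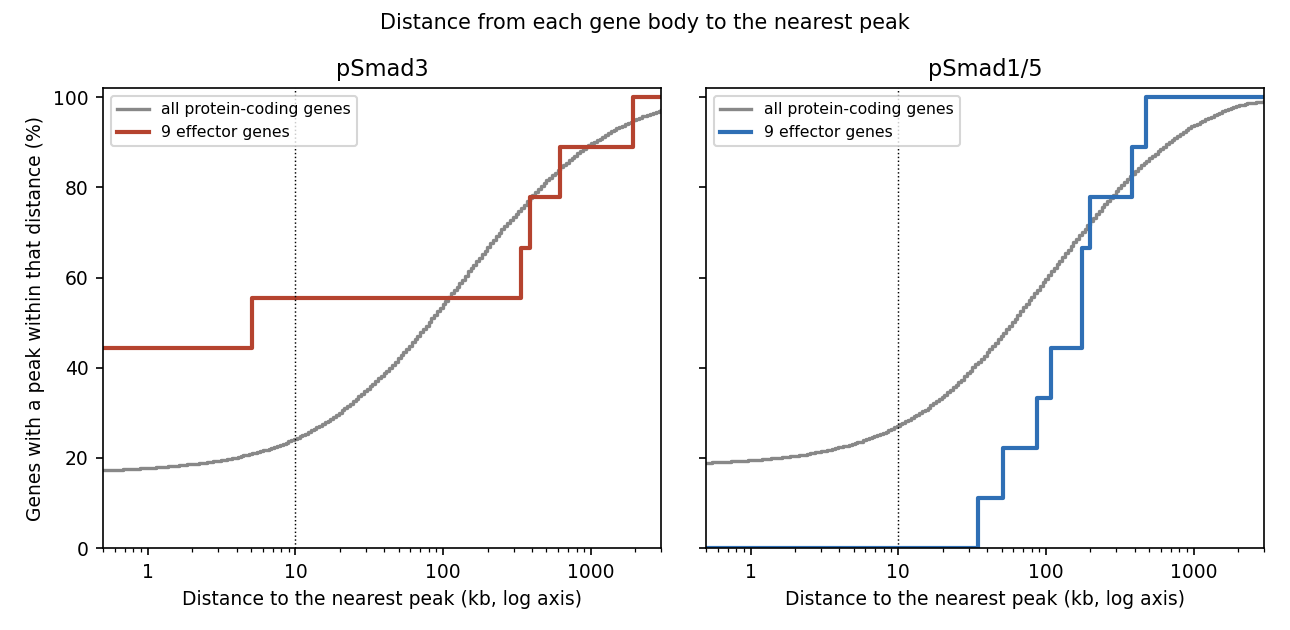
Percent of genes whose nearest pSmad3 peak (left) or pSmad1/5 peak (right) lies within a given distance of the gene body in kb (logarithmic axis; genes touching a peak enter at the left edge), for the 9 effector genes (coloured) and all protein-coding genes (grey); the dotted line marks 10 kb. At 10 kb the pSmad3 curve of the effector genes stands at 5 of 9 genes against 24.4%, and the pSmad1/5 curve at 0 of 9 against 27.3%.

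The genes with and without a pSmad3 peak also differed in their surroundings. Within 1 Mb of the 5 genes with one lay, their own included, 27 pSmad3 peaks for Scx, 20 for Col1a1, 17 for Tagln, 14 for Tgfbi and 8 for Ccn1. The other 4 genes had 3 for Acta2, 1 each for Col1a2 and Fn1 and 0 for Ccn2, and the median protein-coding gene had 8. The pSmad1/5 list gave the same split, with 16 to 39 peaks within 1 Mb of the 5 genes and 1 to 6 of the other 4, against a median of 11. Other protein-coding genes within 1 Mb numbered 20 to 78 for the 5 genes and 12 to 28 for the other 4. The part of this regional density in the presence of a peak was not tested.

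RefSeq promoter sequences of GRCm38.p6, the assembly of mm10, were given for 4 of the 9 genes, and they are shown because they place an annotated start of each gene and hold letters that Smad proteins and their partners are known to recognise. Each runs 5′ to 3′ on the gene's strand from 250 bases before to 50 after the start, in lower case, with matches on either strand in capitals to CAGAC (the core of the Smad binding element), GGCGNC (a GC-rich Smad site) and GGAATG (the site of TEAD factors). The windows are chr3:145649936-145650235 for Ccn1 and chr13:56609336-56609635 for Tgfbi, which had a pSmad3 peak elsewhere in the locus, and chr19:34255324-34255623 for Acta2 and chr6:4505368-4505667 for Col1a2, which had none. The start used for Acta2 lies inside the gene body of the gene table, which extends past it, so most of that window is within the body.
Ccn1: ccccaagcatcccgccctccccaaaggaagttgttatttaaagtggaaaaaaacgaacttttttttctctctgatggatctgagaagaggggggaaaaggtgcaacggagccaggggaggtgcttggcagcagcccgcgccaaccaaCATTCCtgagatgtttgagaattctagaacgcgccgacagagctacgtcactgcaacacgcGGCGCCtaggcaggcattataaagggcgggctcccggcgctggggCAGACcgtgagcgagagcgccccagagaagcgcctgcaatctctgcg
Tgfbi: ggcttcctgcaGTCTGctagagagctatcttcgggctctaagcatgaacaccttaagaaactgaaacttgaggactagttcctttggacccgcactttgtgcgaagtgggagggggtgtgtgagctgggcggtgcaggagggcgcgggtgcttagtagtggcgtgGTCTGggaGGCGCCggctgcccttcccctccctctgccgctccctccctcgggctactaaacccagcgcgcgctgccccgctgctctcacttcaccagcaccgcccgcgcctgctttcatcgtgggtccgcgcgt
Acta2: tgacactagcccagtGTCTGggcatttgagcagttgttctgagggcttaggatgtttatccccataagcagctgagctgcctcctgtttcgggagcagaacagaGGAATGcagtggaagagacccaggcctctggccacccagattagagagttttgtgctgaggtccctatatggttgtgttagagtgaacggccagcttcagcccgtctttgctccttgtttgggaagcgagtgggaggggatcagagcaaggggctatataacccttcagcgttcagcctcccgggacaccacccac
Col1a2: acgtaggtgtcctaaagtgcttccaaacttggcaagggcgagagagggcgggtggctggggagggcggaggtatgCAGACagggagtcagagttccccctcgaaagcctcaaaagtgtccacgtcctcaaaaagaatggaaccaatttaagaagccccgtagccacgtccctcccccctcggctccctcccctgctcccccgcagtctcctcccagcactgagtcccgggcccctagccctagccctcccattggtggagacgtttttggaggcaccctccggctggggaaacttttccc
No peak of either antibody touched any of these 4 windows, and over the promoters of protein-coding genes 4.11% were touched by a pSmad3 and 3.40% by a pSmad1/5 peak. CAGAC was found in all 4, with 2 matches in Tgfbi and 1 in each of the others, but 48.3% of the 21045 promoters of protein-coding genes hold it. The Ccn1 match begins at base 4 of the transcript. The GC-rich site was found in Ccn1 and Tgfbi and in 45.93% of promoters. In both genes it was the palindromic form GGCGCC, which 15.5% of promoters hold. The TEAD site was found in Ccn1 and Acta2, in the first on the other strand, and in 13.48% of promoters. A strict match to the CArG box of serum response factor (CC, then only A or T, then GG) was in none of the 4 windows and in 1.54% of promoters. The Acta2 window holds ccctatatgg and ccttgtttgg, each 1 base off, and such looser matches were not counted. The AP-1 letters TGANTCA were in none of the 4 windows and in 7.04% of promoters. CANNTG, the E-box, had 3 matches in Acta2 and none in the other windows, against 69.0% of promoters with at least 1. These matches are letters in a window and were not set against binding, since no sequence under the peaks was read.

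Wider lists of matrix, contractile, tendon and adhesion genes held peaks of both antibodies, and the short CCN list held pSmad3 peaks alone. Of 98 genes in 7 lists, 34 had a pSmad3 peak (34.7%) and 35 a pSmad1/5 peak (35.7%), against 24.4% and 27.3% of all protein-coding genes. Peaks of both lay at 20, of pSmad3 alone at 14 (14.3%, against 10.3% of all), of pSmad1/5 alone at 15 and of neither at 49. The median body of these genes was 28.3 kb, against 15.3 kb for the 9, and the part of length in these shares was not tested.

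Of 23 genes for fibrillar and interstitial matrix, 8 had a pSmad3 and 9 a pSmad1/5 peak, and 7 had both. Fbln2, an elastic fibre fibulin, had 5 peaks from 4 calls of each antibody (highest totals above 93.9% of the pSmad3 and 80.3% of the pSmad1/5 list). Col5a1, a chain of the collagen that nucleates type I fibrils, had 3 and 2 (92.7% and 72.6%). Fbln5 had 1 of each, Mfap2, a microfibril glycoprotein, 2 and 3, and Fbln1 3 and 4. Sparc, a collagen-binding matricellular protein, had pSmad1/5 alone, 7062 bp from the gene. Of 20 genes of matrix crosslinking and turnover, 7 had a pSmad3 and 8 a pSmad1/5 peak. Bmp1, the protease that removes the C-propeptide of type I procollagen, had 2 and 3 peaks, the 3 from 2 calls. Adamts2, which removes the N-propeptide, had 2 and 3. Loxl1, a lysyl oxidase family member that crosslinks elastin, had pSmad3 alone, with a peak inside the gene above 70.9% of the list. Loxl4, a relative of Loxl1, and Timp2, a metalloproteinase inhibitor, had pSmad1/5 alone. The pSmad3 and pSmad1/5 peaks near P4ha2, a prolyl hydroxylase, had maxima of 537 and 645, far above the list medians.

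Of 18 contractile genes, 7 had a pSmad3 and 7 a pSmad1/5 peak, and 3 had both. Smtn, smoothelin, had 2 and 3 peaks, the 3 being pieces of 1 call. Like Tagln, Cnn2, a calponin, had pSmad3 alone, 969 bp from the gene and above 84.2% of the list, as did Vcl, vinculin (67.4%), and Myh11, smooth muscle myosin heavy chain, with 2 peaks (39.8%). Cald1, caldesmon, and Des, desmin, had pSmad1/5 alone, and Mylk, myosin light chain kinase, had 1 and 2 peaks. Of 10 actin-linked transcription factors, 6 had a pSmad3 and 5 a pSmad1/5 peak, and these genes are long, with a median of 85.0 kb. Of the coactivators of serum response factor, Mrtfa had 1 peak of each antibody and Mrtfb 3 of each. Among the TEAD factors, Tead2 and Tead3 had 1 pSmad3 and 2 pSmad1/5 peaks each, and Tead1 2 pSmad1/5 peaks alone. The 2 pSmad1/5 peaks at Tead2 were pieces of 1 call.

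Of 10 other tendon genes, 1 had a pSmad3 and 1 a pSmad1/5 peak, and 8 had neither. Over all protein-coding genes these shares were 24.4%, 27.3% and 62.4%. The tendon genes are short, with a median of 8.12 kb, and so few genes cannot set the list apart from the background. Egr1, a zinc finger factor of tendon and of the immediate early response, had pSmad3 alone over a gene end, above 21.4% of the list, and Six2 had 3 pSmad1/5 peaks from 2 calls. Of the 4 remaining CCN genes, Ccn4 had 2 pSmad3 peaks and no pSmad1/5 peak, the higher inside the gene and above 59.7% of the list, and the other 3 had none. A pSmad3 peak at 1 gene of 4 is near the 24.4% of all protein-coding genes. So few genes cannot set the lack of pSmad1/5 peaks apart from the 27.3% either. Of 13 receptors for fibronectin and matrix, 4 had a pSmad3 and 5 a pSmad1/5 peak. Itga11, a collagen receptor subunit, had 1 and 2, and Itgb5 1 and 1. Itgb6, a subunit of an integrin that activates latent TGF-β, and Sdc4, a heparan sulphate proteoglycan, had pSmad3 alone, above 15.2% and 6.79% of the list. Itga5, a subunit of the fibronectin receptor, and Ddr2, a collagen receptor kinase, had pSmad1/5 alone.

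**Figure D5:**
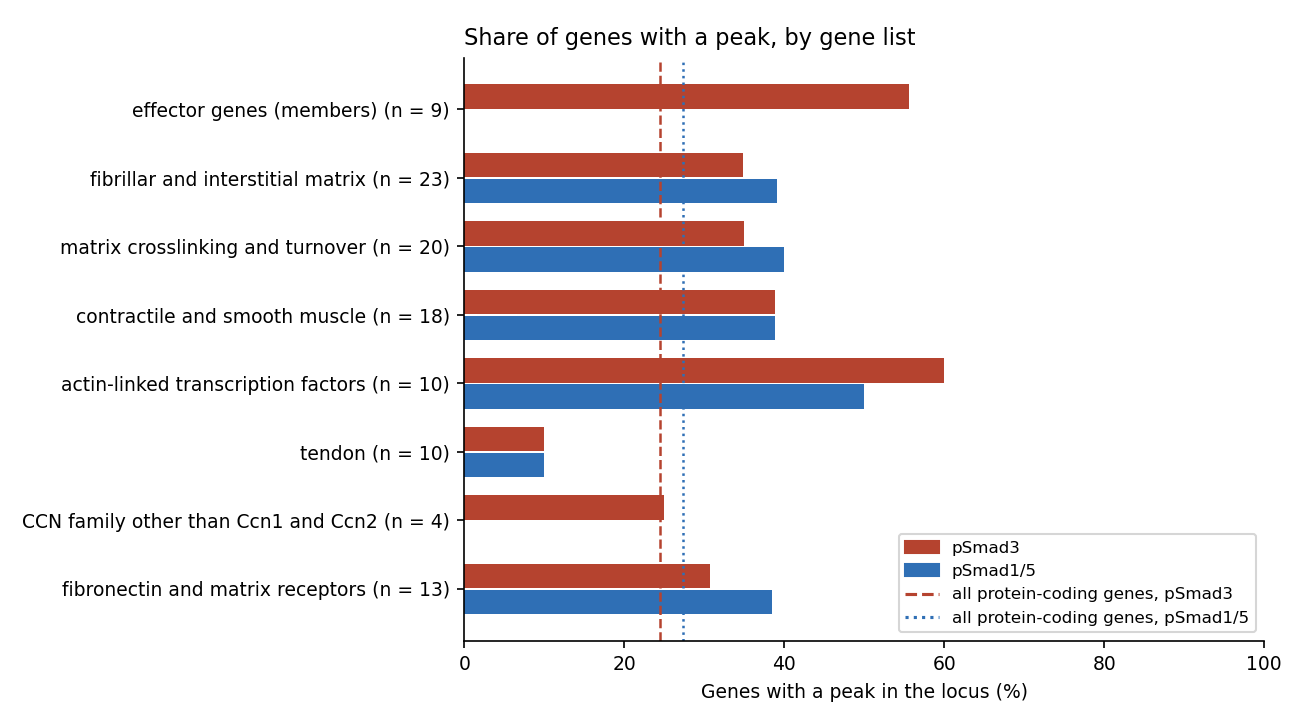
Percent of genes with a pSmad3 peak (red, upper bar) or a pSmad1/5 peak (blue, lower bar) in the locus, for the 9 effector genes and the 7 wider lists (n genes in brackets); the dashed and dotted lines are the shares of all protein-coding genes, 24.4% and 27.3%. The effector genes have no pSmad1/5 bar, and in the matrix, contractile, transcription factor and receptor lists both bars pass the lines.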

How the data were processed

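The data were 2 peak lists from CUT&RUN on E13.5 molar germs, 1 per antibody, and 4 libraries in all were labelled. The deposited lists give, per the labels, the position of each SEACR peak, its total coverage signal, its maximum (a score in the same scaling) and the region of the maximum. The values are in the authors' own scaling, so they were used to rank peaks within a list and never between antibodies. Per the submitters' processing notes, Bowtie2, SAMtools, bedtools, SEACR and deepTools were used with mm10. Versions, thresholds, any control and how the libraries were joined: not given in the sources used here; read depth is unknown.

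Gene bodies came from the RefSeq table of GRCm38.p6, which has no strand or exons; strand was read from the promoter table where it listed a gene. Genes listed below 3 Mb were dropped as unlocalised. A peak counted with 1 bp of overlap, in Python 3.11.15 with pandas 2.3.3, tested on simulated data. Lines sharing total, maximum and maximum region were 1 call. The percent of a list below a peak is the percent of its lines with a lower value. The 9 genes and the wider lists were chosen with earlier results of these data known. From each wider list, up to 4 genes per antibody with the highest total were named. Alternatives varied the window, the overlap, the peak filter and the gene length. No genome was used, so peak sequences were not read.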

Additional observations from a re-analysis of the deposited data

How the results depend on the processing

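Of 100 alternative values, 90 stayed within 1.5 times the value reported and 10 moved further. The 90 include counts of 0 under narrower windows or peak filters, which could only stay at 0, so 90 is not a measure of robustness. With 50 kb on each side, 1 gene (Tgfbi) had a pSmad1/5 peak, so 1 had peaks of both antibodies, from 1 pSmad1/5 peak. Over all protein-coding genes these shares were 47.3% and 31.9%. With peaks at or above the list median of total signal, 3 genes (Scx, Ccn1 and Col1a1) had a pSmad3 peak, from 4 pSmad3 peaks. All 3 were without a pSmad1/5 peak in the locus, and 1 gene had a pSmad1/5 peak within 100 kb. With this filter, 14.1% of all protein-coding genes had a pSmad3 peak and 7.86% had it without pSmad1/5. A pSmad1/5 peak lay within 100 kb of 37.3%. Without peaks that touch another gene, chosen after seeing the data, 3 genes (Ccn1, Col1a1 and Tgfbi) had a pSmad3 peak and no pSmad1/5 peak, from 4 peaks. Scx and Tagln dropped out of that last count, since all their locus peaks touch another gene. The share over all protein-coding genes was not computed for it. No pSmad1/5 peak lay in the 9 loci with 20 kb on each side or by the region of maximum signal. The remaining settings only narrowed the window or the list, so they could not have added such a peak. No paired analysis was possible because each antibody has 1 list common to its libraries, which also means that no library could be left out. Read depth is unknown, so weak binding under the calling threshold was not detectable.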

Other observations

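Of the 98 genes in the wider lists, 70 had a promoter in the RefSeq table. Those with a promoter window touched by a pSmad3 peak, named after their values were seen, were Col6a3, a chain of the microfibrillar type VI collagen, Mfap2, Serpinh1, the collagen chaperone of the endoplasmic reticulum, and Tead3. Over all promoters of protein-coding genes 4.11% were touched by a pSmad3 and 3.40% by a pSmad1/5 peak. These are shares of promoter windows, whereas 4 of 70 counts genes, some of which have several windows. A share over genes was not computed, so the 4 are not read as an excess. That no pSmad1/5 peak touched the windows of these 4 is the usual state of a promoter. The nearest pSmad1/5 peak lay 57833 bp from the Serpinh1 window, 27959 bp from that of Col6a3, 4557 bp from the touched Mfap2 window and 411 bp from the nearest of the 3 Tead3 windows.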
